A study of Mus musculus with 6 samples.

Results

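The 9 genes Sema3c, Sema3d, Sema3e, Sema3g, Sema5a, Slit2, Slit3, Robo1 and Robo2 were taken by name from the 3 deposited UMI tables, which hold 23494 genes between them. Their counts were summed over the cells of each Seurat cluster in each library. The sorted cells were live tdT+ cells from the cerebral cortex of mice 3 to 4 months old, of the NG2-CreERT2/Ai14 or the Tbx18-CreERT2/Ai14 genotype, in which tamoxifen switches on the tdT reporter in cells that use the NG2 (Cspg4) or the Tbx18 promoter. Each line gave a naive library without injury, a physical injury library after saline injection and an ischemic injury library after injection of ET-1/L-NAME, which constricts vessels and blocks nitric oxide synthesis. Injured mice received tamoxifen 7 days before injury, and cortex was collected 3 days after it. The animals of a group were pooled into 1 library, so there is no replicate and no test, and every interval below covers counting error only. Both promoters also mark cells other than pericytes, and these stay in the sort.

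Class 3 semaphorins are secreted proteins that bind neuropilins and plexins and steer axons, migrating cells and vessel sprouts. Semaphorin 5A is a transmembrane semaphorin with thrombospondin repeats. Slit proteins are large secreted ligands that repel or guide cells through Robo receptors, and srGAP proteins link these receptors to the cytoskeleton. In the brain the same ligands and receptors serve axons, oligodendrocyte precursors and vessels.

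On the GRCm38 build, in the GENCODE M21 annotation, the class 3 genes studied here other than Sema3g lie along chromosome 5. Sema3d spans chr5:12383385-12588948, Sema3e chr5:14025276-14256689 and Sema3c chr5:17574281-17730268, all on the plus strand. Sema3d and Sema3e are 1.44 Mb apart with 2 protein-coding genes between them, one of which is the class 3 semaphorin Sema3a. Sema3g is at chr14:31217860-31230352, Sema5a at chr15:32244810-32696341, Slit2 at chr5:47983138-48307733 and Slit3 at chr11:35121224-35708507, also on the plus strand. Robo1, on the plus strand of chr16:72308306-73046095, and Robo2, on the minus strand of chr16:73891839-74411825, are 0.846 Mb apart with 0 protein-coding genes between them.

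The 250 bases before the RefSeq start (GRCm38.p6, plus strand, 5′ to 3′) are printed for 3 genes whose levels below peaked in different cells: Sema3g in endothelial cells, Sema3e in oligodendrocyte precursor cells and Slit2 in cluster 4 of the Tbx18 line. Capitals mark 1 searched motif in each. In Sema3g they mark CTTCC, the other strand of the ETS core GGAAG. In Sema3e they mark ATTGT, the other strand of the SOX core ACAAT, and in Slit2 the TATA box TATAAA.
Sema3g, chr14:31217623-31217872: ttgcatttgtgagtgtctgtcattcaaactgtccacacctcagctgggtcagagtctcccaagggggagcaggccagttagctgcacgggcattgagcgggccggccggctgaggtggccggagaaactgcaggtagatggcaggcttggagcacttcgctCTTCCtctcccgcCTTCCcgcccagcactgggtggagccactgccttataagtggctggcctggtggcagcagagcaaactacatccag
Sema3e, chr5:14025026-14025275: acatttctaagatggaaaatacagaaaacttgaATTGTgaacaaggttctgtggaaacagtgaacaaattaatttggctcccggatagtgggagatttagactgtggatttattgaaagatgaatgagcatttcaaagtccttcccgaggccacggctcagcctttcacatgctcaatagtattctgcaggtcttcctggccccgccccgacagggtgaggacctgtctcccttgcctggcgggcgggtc
Slit2, chr5:47982905-47983154: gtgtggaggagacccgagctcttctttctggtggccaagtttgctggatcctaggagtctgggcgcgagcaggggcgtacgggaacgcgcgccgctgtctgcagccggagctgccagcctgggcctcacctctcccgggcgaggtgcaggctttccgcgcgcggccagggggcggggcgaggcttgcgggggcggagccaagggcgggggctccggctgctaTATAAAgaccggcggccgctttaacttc
GC content was 60.4% for Sema3g, 48% for Sema3e and 69.6% for Slit2, against a median of 52.4% over 32841 RefSeq starts. Searched on both strands, GGAAG was present in 64.1% of the windows of all starts, ACAAT in 27.7% and TATAAA in 12.4%. GATAA, present in 22.6% of all windows, was in none of these 3, and the E-box CANNTG, present in 66.2%, was in those of Sema3g and Sema3e. The Sema3e window also holds GGAAG, which is not capitalized there. Among members that peaked in the same cells, the Sema3c window held no GGAAG, and those of Sema3d and Robo1 held no ACAAT. A match describes letters and is no evidence of binding.

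Levels are given as CPM, the UMIs of a gene per 1000000 UMIs of the cells summed, with the exact Poisson 95% interval in parentheses. The libraries of the NG2 line held 4306 naive, 2563 physical injury and 3586 ischemic injury cells with medians of 4043, 6322 and 7851 UMIs, and those of the Tbx18 line 686, 3845 and 2047 cells with medians of 2806, 7376 and 9232 UMIs. Any pair of libraries shared between 0 and 5 cell barcodes. Cluster numbers are those deposited for each line, and cell type names are those the study gave them. Summed markers went against the name in cluster 3 of the Tbx18 line, named microglia: its 76 naive cells had pericyte markers at 21279 CPM and myeloid markers at 26.6 CPM, while the injured cells had myeloid markers at 28434 and 24271 CPM. In cluster 4, named vascular-genic pericytes, pericyte markers summed to 16100.1 CPM in naive and to 133 and 26.1 CPM in physical and ischemic injury cells. Clusters of fewer than 20 cells or 50000 UMIs in a library were left out of comparisons. Radial glial precursors and microglia of the NG2 line could therefore be compared between the injured libraries alone, and fibroblasts of the Tbx18 line, with 5, 116 and 10 cells, not at all.

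Sema3c and Sema3g were highest in endothelial cells, Sema3d, Sema3e and Robo1 in oligodendrocyte precursor cells (OPCs) of the NG2 line, and Slit3 in smooth muscle cells. Sema5a was highest in pericytes and OPCs, Robo2 in fibroblasts of the Tbx18 line and Slit2 in cluster 4 of that line. Every cell was also thinned to 1000 UMIs, and the share of cells with a UMI was compared with a background share. This is the share in the cluster of the same library, among those with at least 100 cells, where the gene had its lowest level. Because that cluster is picked by the gene's own level, its share is a low reference and no measure of free RNA. The lower limit exceeded the upper limit of this background share in 74 of 369 combinations of gene, cluster and library of the line tables, 48 of 252 in the NG2 and 26 of 117 in the Tbx18 line. The same count was not made over all genes, so it does not set the members apart from other genes.

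**Figure D1:**
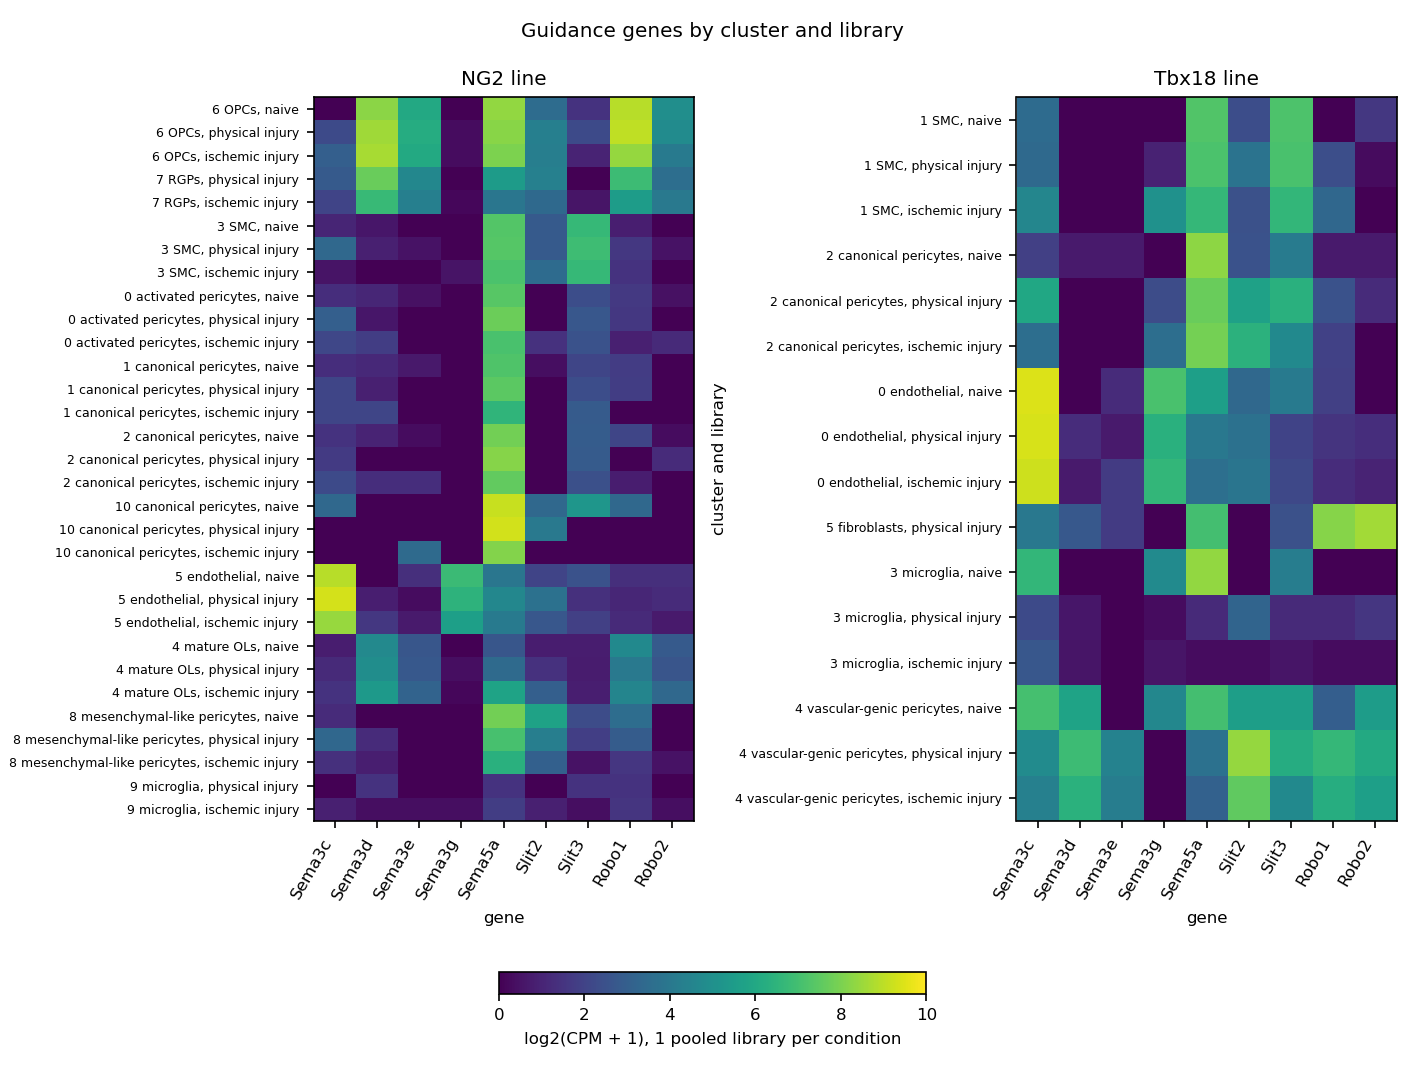
Level of each of the 9 genes (color, log2 of CPM + 1) by cluster and library with enough cells, for the NG2 line (left) and the Tbx18 line (right). Sema3c and Sema3g are brightest in the endothelial rows, Sema3d, Sema3e and Robo1 in the OPC rows, and Sema5a is bright in every pericyte and smooth muscle row of the NG2 line.

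Sema3c, a secreted semaphorin known for its part in outflow tract patterning, reached 489 CPM (436 to 547) in naive, 648 CPM (622 to 674) in physical injury and 354 CPM (337 to 371) in ischemic injury endothelial cells of the NG2 line. The naive level lay between those of the injured libraries, and no pair of intervals overlapped. Log2 ratios below use CPM + 1, and their 95% intervals are exact conditional ones on the counts themselves. Against naive cells the log2 ratio of Sema3c was 0.40 (0.23 to 0.58) after physical and -0.47 (-0.64 to -0.29) after ischemic injury. Between the injured libraries it was -0.87 (-0.96 to -0.78), ischemic over physical. Naive endothelial cells of the NG2 line also held pericyte marker RNA, as given below where the naive cells of both lines are compared. Its part in the Sema3c and Sema3g ratios over naive was not tested. Endothelial cells of the Tbx18 line had 704 CPM (645 to 767) of Sema3c in the naive, 668 CPM (653 to 682) in the physical injury and 608 CPM (595 to 621) in the ischemic injury library. There the ischemic interval lay below both others, which overlapped, at a log2 ratio of -0.14 (-0.18 to -0.09) over physical injury. In the naive library 5 of the 159 cells held 27.4% of the counts, against 3.66% and 3.46% after injury. By the mean over cells the naive level was lowest, at 574 CPM against 657 and 616 CPM. Thinned to 1000 UMIs, 40.9%, 42.0% and 39.9% of these cells had a Sema3c UMI, with overlapping intervals. In the NG2 line 33%, 43.4% and 30.6% of thinned endothelial cells had one. In the naive library this compares with 0 of 495 smooth muscle cells, with an upper limit of 0.742%.

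Sema3g, a semaphorin of arterial endothelium, reached 113 CPM (88.3 to 142) in naive, 87.8 CPM (78.5 to 97.9) in physical injury and 49.3 CPM (43.2 to 56.1) in ischemic injury endothelial cells of the NG2 line. A gene was counted as called when its log2 ratio was at least 1 in size with at least 10 CPM in the higher group. Sema3g was called lower after ischemic injury than in naive cells (log2 ratio -1.18, -1.58 to -0.79), in a comparison where 3.59% of all genes tested were called lower. The physical injury interval overlapped the naive one (-0.36, -0.74 to 0.03). The Tbx18 line had 138 CPM (112 to 167) of Sema3g in naive, 81.1 CPM (76.2 to 86.3) in physical injury and 97.9 CPM (92.8 to 103) in ischemic injury endothelial cells. Both injured libraries were below the naive one there, at -0.75 (-1.06 to -0.45) and -0.49 (-0.78 to -0.19), short of a call. In the naive library 5 of the 159 cells held 46.1% of the Sema3g counts, against 6.21% and 6.09% after injury. By the mean over cells the levels were 99.1, 72.6 and 96.5 CPM. Thinned, 10.2% (5.70% to 16.6%), 6.97% (5.82% to 8.28%) and 8.12% (6.78% to 9.63%) of these cells had a Sema3g UMI, with overlapping intervals. The naive library of a line is shared by both of its injury comparisons.

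The endothelial cells were then divided by UMIs of lists of arterial and venous genes that do not hold Sema3g. A cell counted for a list with at least 2 UMIs of it and none of the other list. Arterial-list cells of the NG2 line had 139 CPM (37.8 to 355) of Sema3g from 4 counts in 5 cells in the naive library, 210.4 CPM (147 to 291) after physical and 189 CPM (130.1 to 265) after ischemic injury. Venous-list cells had 7.50 CPM from 1 count, 8.09 CPM (3.49 to 15.9) and 1.62 CPM (0.196 to 5.85). Cells of each list also carried capillary genes, so neither list is a vessel type. In the naive Tbx18 library the venous list summed to 914 CPM in pericytes of cluster 2, 782 CPM in smooth muscle and 433 CPM in endothelial cells. The arterial list summed to 153, 329 and 665 CPM there. Mural RNA can therefore enter the venous list, and its part in the split was not tested. In the Tbx18 line arterial-list cells had 110.4, 205 and 166 CPM, and venous-list cells 30.6, 6.08 and 7.70 CPM. The log2 ratio of arterial over venous cells was positive in 6 of 6 libraries, from 1.82 (0.13 to 3.94) in naive Tbx18 cells to 6.18 (4.90 to 9.97) in ischemic injury NG2 cells. All remaining cells, which are most of the cluster, form the rest, where cells with UMIs of both lists also fall. In these cells Sema3g was at 141 CPM (109 to 179) in naive, 111 CPM (98.1 to 124) in physical injury and 59.7 CPM (51.7 to 68.6) in ischemic injury cells of the NG2 line. Their ischemic interval lay below both others, while the arterial-list intervals of the 3 libraries overlapped. In the Tbx18 line such cells had 171 CPM (137 to 211), 95.5 CPM (88.98 to 102) and 120.4 CPM (114 to 127), with the physical injury interval lowest and the naive level above that of the arterial-list cells. Sema3c in arterial- and venous-list cells of the NG2 line was at 450.4 and 599.8 CPM in naive, 865 and 611 CPM in physical injury and 601 and 347 CPM in ischemic injury cells. For the Tbx18 line the values were 1307 and 635 CPM in naive, 679 and 599 CPM in physical injury and 729 and 579.5 CPM in ischemic injury cells. Arterial-list cells were higher without overlap of the intervals in 5 of 6 libraries, and lower with overlap in naive NG2 cells. In single thinned cells of the Tbx18 line, 41.3% (32.4% to 50.6%) of 121 cells with Sema3g and 42.1% (39.6% to 44.5%) of 1614 cells without it had a Sema3c UMI after physical injury, and the intervals with and without Sema3g overlapped in all 6 libraries.

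**Figure D2:**
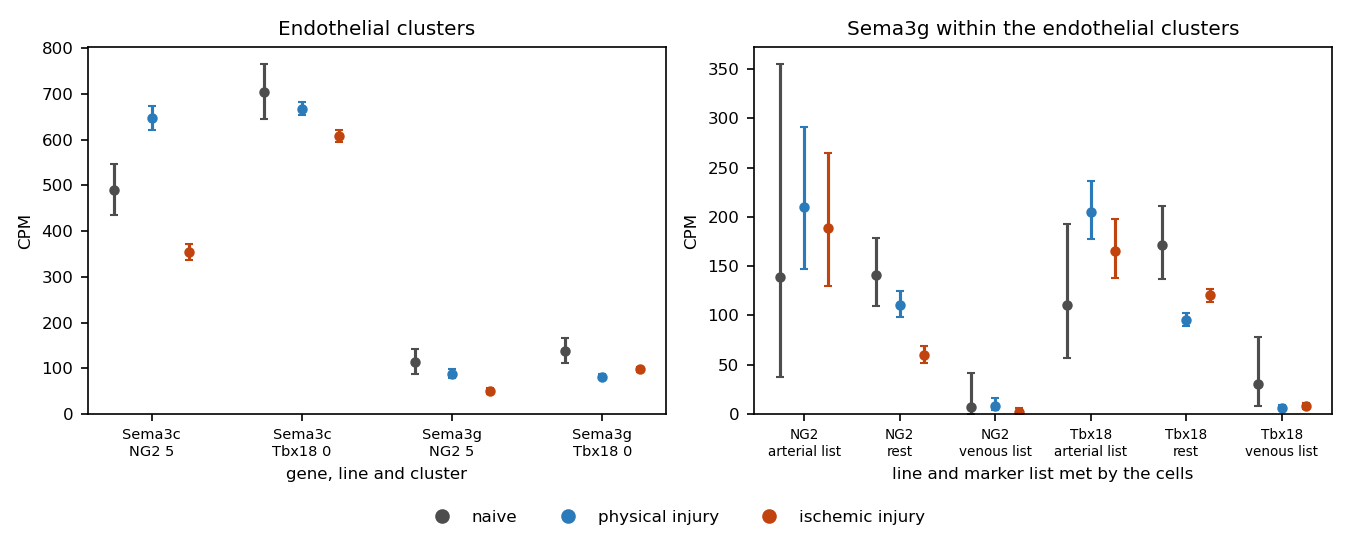
Left, Sema3c and Sema3g levels (CPM, points with exact Poisson 95% intervals) in endothelial cells of both lines, by library. Right, Sema3g in endothelial cells of the arterial list, the rest and the venous list, where the venous-list points sit lowest in every library, between 1.62 and 30.6 CPM.

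The remaining class 3 genes studied here were highest, within the NG2 line, in its OPC cluster. Sema3d reached 306 CPM (262 to 355) in naive, 384 CPM (364 to 404) in physical injury and 415 CPM (395 to 436) in ischemic injury OPCs. Both injured intervals lay above the naive one, with log2 ratios of 0.33 (0.10 to 0.56) and 0.44 (0.21 to 0.67), below the size needed for a call. Sema3e, whose product binds plexin D1 directly, had 65.04 CPM (45.8 to 89.7), 72.1 CPM (63.8 to 81.2) and 65.8 CPM (58.1 to 74.3) in the same order, and its 3 intervals overlapped. Thinned, 24.7%, 25.5% and 32.5% of OPCs had a Sema3d UMI and 5.15%, 6.29% and 7.34% a Sema3e UMI, while in the lowest cluster of each library 0 cells had either, with upper limits of 0.732% to 3.62%.

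The receptor Robo1 was lowest in OPCs after ischemic injury. It reached 487 CPM (431 to 548) in naive, 528 CPM (505 to 551) in physical injury and 345 CPM (327 to 364) in ischemic injury OPCs. Naive and physical injury intervals overlapped and the ischemic one was below both, with log2 ratios of -0.50 (-0.68 to -0.31) over naive and -0.61 (-0.71 to -0.51) over physical injury. Robo2, another axon guidance receptor of the family, had 29.9 CPM (17.4 to 47.8), 27.2 CPM (22.2 to 33) and 16.5 CPM (12.7 to 20.98), with the ischemic interval below the physical injury one. Its 17, 103 and 65 counts came from 7, 45 and 28 cells, and 5 cells held 88.2%, 29.1% and 44.6% of them. Thinned, the Robo2 share of OPCs was above the background share in the naive and physical injury libraries but not after ischemic injury. Sema5a had 334 CPM (288 to 385), 295 CPM (278 to 313) and 263 CPM (247 to 279) in OPCs, with the ischemic interval below the naive one (-0.35, -0.57 to -0.12). The naive OPCs also held more pericyte marker RNA, at 1859.8 CPM against 249 and 301 CPM, and its part in the Sema5a values was not tested. In single thinned OPCs after ischemic injury, 22.6% (14.6% to 32.4%) of 93 cells with Sema3d and 22.8% (17.1% to 29.4%) of 193 cells without it had a Robo1 UMI, and in the naive and physical injury libraries the intervals with and without Sema3d overlapped as well.

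Radial glial precursors of the NG2 line held less of several of these genes after ischemic than after physical injury. Robo1 was at 115 CPM (95.1 to 139) after physical and 45.6 CPM (42.3 to 49.1) after ischemic injury. Sema5a was at 43.3 CPM (31.2 to 58.5) and 14.4 CPM (12.5 to 16.4), and Sema3d at 211 CPM (183 to 242) and 107 CPM (102 to 112). None of these 3 pairs of intervals overlapped. Robo1 (log2 ratio -1.32, -1.63 to -1.04) and Sema5a (-1.53, -2.07 to -1.08) were called lower, with 5.19% of all genes tested called lower in this comparison. After physical injury 5 of the 76 cells held 55.4% of the Robo1, 54.8% of the Sema5a and 40.98% of the Sema3d counts. Thinned, 1.92% (0.0487% to 10.3%) of these cells had a Robo1 UMI after physical and 4.11% (2.41% to 6.49%) after ischemic injury, and 3.85% (0.469% to 13.2%) and 1.93% (0.838% to 3.77%) a Sema5a UMI. These shares do not repeat the order of the Robo1 levels. They were above the background share for Robo1 after ischemic injury alone and for Sema5a in neither library. Sema3d missed the size for a call at -0.98 (-1.20 to -0.77), and Sema3e, with 23.7 CPM (15.03 to 35.6) and 19.01 CPM (16.9 to 21.3), had overlapping intervals. Robo2 was not lower after ischemic injury, with 11 counts in 970053 UMIs after physical and 235 in 15153721 after ischemic injury. The cells had medians of 12792 UMIs after physical and 37572.5 after ischemic injury. OPC markers summed to 8094 CPM after physical and 4691 CPM after ischemic injury in this cluster, and radial glia and cycling markers to 2846 and 4251 CPM. Their part in the difference was not tested.

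**Figure D3:**
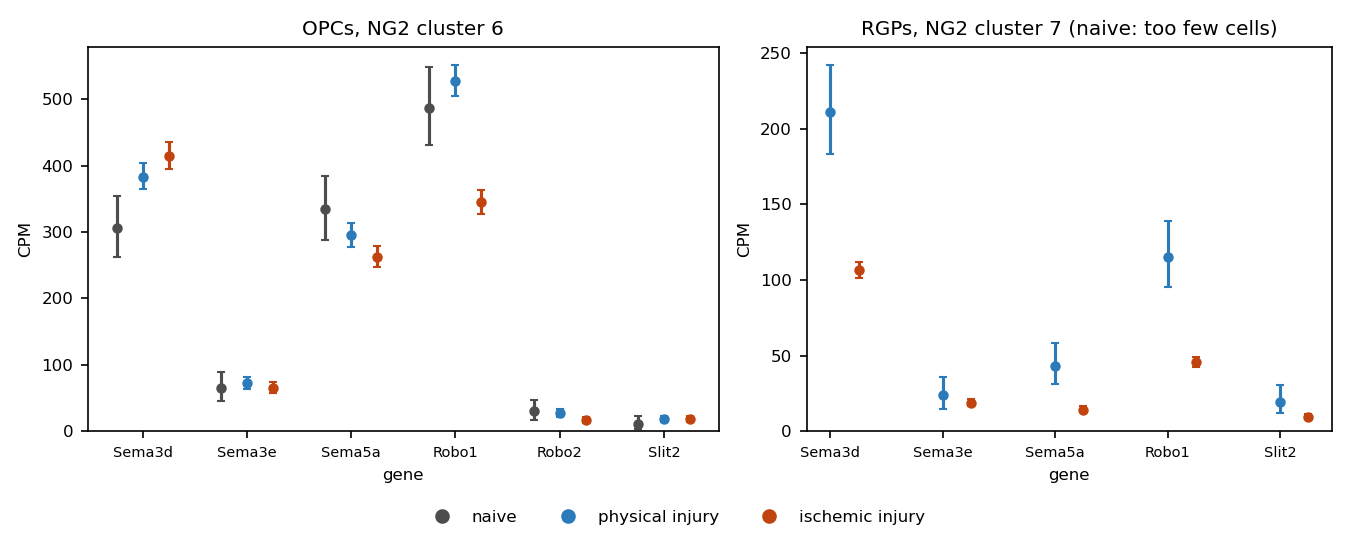
Members (CPM, points with exact Poisson 95% intervals) in OPCs (left) and radial glial precursors (right) of the NG2 line, by library, on separate scales. Robo1 is lowest in the ischemic injury library in both panels, at 345 and 45.6 CPM, while Sema3d in OPCs is lowest in the naive library, at 306 CPM.

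In mature oligodendrocytes of the NG2 line Sema5a was at 5.35 CPM (2.15 to 11.02) from 7 counts in naive, 10.1 CPM (7.87 to 12.7) in physical injury and 54.8 CPM (51.3 to 58.4) in ischemic injury cells. The naive and physical injury intervals overlapped and the ischemic one lay above both. It was called higher over naive (log2 ratio 3.13, 2.31 to 4.67) and over physical injury (2.33, 2.09 to 2.81), in comparisons where 5.32% and 2.45% of all genes tested were called higher. The ischemic counts came from 231 of 592 cells, and the 5 cells with the most held 19.9% of them. These cells were deep, with medians of 13252, 23779 and 29600.5 UMIs, and 6.80%, 13.6% and 39.02% of them had a Sema5a UMI as deposited. Thinned, the shares were 0%, 0.342% and 3.85% (2.43% to 5.77%). The last overlapped the background share of microglia in that library, 0.649% (up to 3.56%). The shares alone thus do not set it apart from the lowest cluster, and free RNA was not measured. The Sema5a level of those microglia was 2.50 CPM (1.14 to 4.75). Pericyte markers summed to 335, 167 and 165 CPM in the oligodendrocytes of the 3 libraries. OPC markers summed to 33.6, 77.1 and 146 CPM, and the part of either list in the Sema5a difference was not tested. Sema3d in the same cells had 25.2 CPM (17.4 to 35.4), 28.8 CPM (24.99 to 33.1) and 41.8 CPM (38.8 to 44.97), with a log2 ratio of 0.71 (0.23 to 1.28) for ischemic injury over naive.

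Sema5a was the member found across mural cells. In the naive NG2 library its level was 578 CPM (443 to 741) in cluster 10, from 62 counts in 44 cells. It was 235 CPM (219.8 to 250.2) in cluster 2 and 233 CPM (199 to 270.1) in the mesenchymal-like cluster 8. Below these came the activated pericytes of cluster 0 with 169 CPM (159 to 181), smooth muscle cells with 157 CPM (145 to 170.1) and cluster 1 with 151 CPM (138 to 164). Clusters 2 and 8 did not differ beyond their intervals, nor did neighbours among the last 3. Endothelial cells had 14.1 CPM (6.45 to 26.8).

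Across the 3 largest pericyte clusters of the NG2 line, Sema5a was highest after physical and lowest after ischemic injury. Cluster 0 had 215 CPM (195 to 237) after physical and 139 CPM (124 to 155) after ischemic injury. Cluster 1 had 179 CPM (156 to 204) and 92.9 CPM (74.4 to 115), and cluster 2 had 293 CPM (271 to 317) and 190.5 CPM (168 to 215). In each cluster the ischemic interval lay below the physical injury one, with log2 ratios of -0.63 (-0.84 to -0.42), -0.94 (-1.32 to -0.58) and -0.62 (-0.84 to -0.41). Over naive cells the ratios were 0.35 (0.18 to 0.52), 0.25 (0.01 to 0.48) and 0.32 (0.17 to 0.47) after physical injury. After ischemic injury they were -0.28 (-0.47 to -0.10), -0.69 (-1.04 to -0.37) and -0.30 (-0.51 to -0.10). None of these reached the size for a call.

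The smaller NG2 pericyte clusters differed more. In the mesenchymal-like cluster 8 Sema5a was at 233 CPM in naive, 136 CPM (111 to 164) in physical injury and 80.6 CPM (69.8 to 92.6) in ischemic injury cells, and no intervals overlapped. The ischemic library was called lower than naive (log2 ratio -1.52, -1.83 to -1.23), where 11.8% of all genes tested were called lower. In cells of this cluster with neither smooth muscle nor endothelial markers Sema5a was at 218 CPM (183 to 258), 141 CPM (105 to 185) and 91.6 CPM (76.6 to 109), in the same order as in all its cells. Smooth muscle markers summed to 1119, 3938 and 1969.6 CPM in cluster 8. Cluster 10, with 44, 23 and 43 cells, had 578 CPM, 636 CPM (457 to 863) and 281 CPM (187 to 406) of Sema5a. These levels came from 62, 41 and 28 counts, and 5 cells held 51.6%, 65.9% and 60.7% of them. In this cluster Sema5a was called lower after ischemic injury than in naive cells (-1.04, -1.74 to -0.38) and than after physical injury (-1.18, -1.93 to -0.45), in comparisons where 16% and 20.7% of all genes tested were called lower. Smooth muscle cells of the NG2 line had 165 CPM (149 to 182) and 144 CPM (129 to 161) after injury, which overlapped the naive level and each other.

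Canonical pericytes of the Tbx18 line had another order. Sema5a was at 315 CPM (287 to 345) in naive, 210.2 CPM (187 to 235) in physical injury and 241 CPM (193 to 298) in ischemic injury cells of cluster 2. Log2 ratios over naive were -0.58 (-0.80 to -0.38) and -0.39 (-0.74 to -0.05), and between the injured libraries the ratio was 0.20 (-0.16 to 0.55). Smooth muscle markers in cluster 2 summed to 718, 4189 and 1751 CPM and pericyte markers to 31057, 20052 and 19249.5 CPM. Its cells with pericyte but neither smooth muscle nor endothelial markers had 304 CPM (275 to 336), 219.8 CPM (189.9 to 253) and 242 CPM (183 to 314) of Sema5a, in the same order as all its cells. Smooth muscle cells of this line had 155 CPM (122 to 194), 142 CPM (134 to 149.8) and 101 CPM (63.1 to 152), with overlapping intervals.

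In endothelial cells of the Tbx18 line Sema5a was at 48.5 CPM (34 to 67.2) in naive, 15.2 CPM (13.1 to 17.5) in physical injury and 11.7 CPM (9.99 to 13.6) in ischemic injury cells. It was called lower in both (-1.61, -2.20 to -1.12, and -1.96, -2.58 to -1.49), where 7.85% and 7.16% of all genes tested were called lower. Slit3 was called lower in the same comparisons, at 16.2 CPM (8.36 to 28.3) in naive and 3.09 CPM (2.18 to 4.24) and 3.55 CPM (2.63 to 4.68) in injured cells. Pericyte markers in these endothelial cells summed to 3915, 359 and 105 CPM, with 8 of 8 detected in the naive library, and smooth muscle markers to 1258, 133 and 64.01 CPM. Their part in both differences was not tested.

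**Figure D4:**
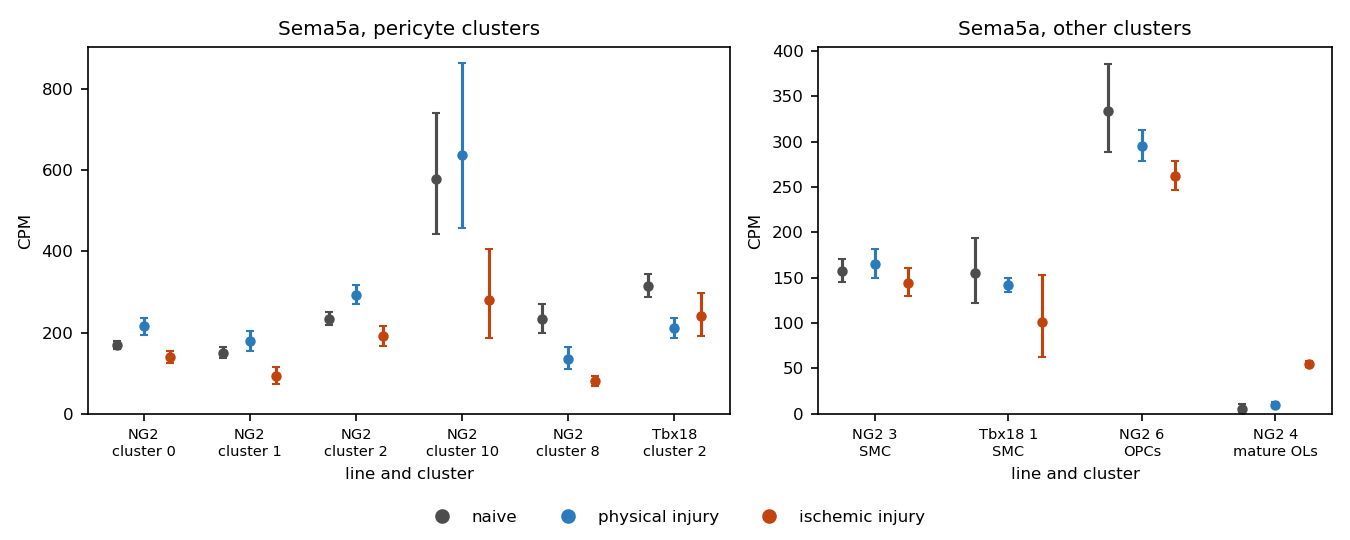
Sema5a level (CPM, points with exact Poisson 95% intervals) in pericyte clusters (left) and in smooth muscle cells, OPCs and mature oligodendrocytes (right), by line and library. In clusters 0, 1 and 2 of the NG2 line the physical injury points (215, 179 and 293 CPM) sit highest and the ischemic ones lowest, while in cluster 2 of the Tbx18 line the naive point (315 CPM) is highest.

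Slit3 was a gene of smooth muscle cells in both lines. It reached 102 CPM (92.04 to 112) in naive, 118 CPM (105 to 132) in physical injury and 103 CPM (90.7 to 117) in ischemic injury smooth muscle cells of the NG2 line, with overlapping intervals. In those of the Tbx18 line it reached 145 CPM (113 to 183), 139.6 CPM (132 to 148) and 96.1 CPM (59.5 to 147), the last from 21 counts in 47 cells, again with overlapping intervals. Thinned, 8.28%, 12.97% and 9.26% of the NG2 cells had a Slit3 UMI, against 0.284% (up to 0.828%) of naive cluster 1. In single thinned smooth muscle cells of the NG2 line, cells with and without a Slit3 UMI had a Sema5a UMI at 14.6% of 41 and 16.96% of 454 in naive, 32.3% of 31 and 13.5% of 208 in physical injury and 12% of 25 and 12.7% of 245 in ischemic injury cells. The intervals overlapped in each library.

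Slit2 was rare in the NG2 line. In the naive library its level was highest, among clusters with enough cells, in the mesenchymal-like cluster 8, at 52.7 CPM (37.5 to 72.1) in naive, 18.4 CPM (10.1 to 30.9) in physical injury and 7.29 CPM (4.32 to 11.5) in ischemic injury cells. It was called lower after both injuries (log2 ratios -1.47, -2.51 to -0.60, and -2.70, -3.75 to -2.01), where 9.23% and 11.8% of all genes tested were called lower. It was also called lower after ischemic than after physical injury (-1.23, -2.43 to -0.22), where 4.19% were. The 39, 14 and 18 counts came from 18, 5 and 6 cells, and the 5 cells with the most held 53.8%, all and 94.4% of them. Thinned to 1000 UMIs the physical injury cells were no longer lower, at a log2 ratio of 0.38. With cells of mixed markers left out, the ratio of ischemic over physical injury was 1.02. In the injured libraries Slit2 was highest in radial glial precursors after physical and in OPCs after ischemic injury. By the mean over cells, cluster 8 was highest after physical injury. OPCs held 71 and 73 counts from 43 and 41 cells. After ischemic injury radial glial precursors held 147 and oligodendrocytes 125 of the 420 counts. Thinned, none of these glial shares exceeded the background share.

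The other calls of the NG2 line rested on small counts. Slit2 in endothelial cells had 2, 45 and 26 counts and was called higher after physical injury than in naive (1.67, 0.02 to 5.05, beside 4.06% of all genes) and lower after ischemic than after physical injury (-1.03, -1.91 to -0.43, beside 1.03%). Robo1 in cluster 8 had 8, 5 and 5 counts and was called lower after ischemic injury (-1.97, -4.38 to -0.62). In cluster 10 Slit3 (4, 0 and 0 counts), Sema3e (0, 0 and 1 counts) and Slit2 (1, 1 and 0 counts) gave 5 further calls, all with intervals that hold 0. In that cluster 23.6% of all genes tested were called lower after physical injury and 32.6% higher after ischemic injury than in naive, and 34.9% higher after ischemic than after physical injury.

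Over all cells of cluster 2 of the Tbx18 line, named canonical pericytes, both Slit genes and Sema3c were higher after physical injury. Not all of these cells carried pericyte markers alone, as given below. Slit3 was at 16.8 CPM (10.9 to 24.8) in naive, 81.5 CPM (67.6 to 97.4) in physical injury and 25.5 CPM (11.7 to 48.5) in ischemic injury cells. Slit2 was at 4.71 CPM (1.89 to 9.70), 51.9 CPM (40.9 to 64.8) and 85.1 CPM (57.4 to 122), and Sema3c at 2.69 CPM (0.733 to 6.89), 60.6 CPM (48.8 to 74.5) and 11.4 CPM (3.09 to 29.1). All 3 were called higher after physical injury, with log2 ratios of 2.21 (1.65 to 2.96), 3.21 (2.35 to 4.82) and 4.06 (3.09 to 6.40), where 8.48% of all genes tested were called higher. After ischemic injury Slit2 (3.92, 2.96 to 5.61), Sema3c (1.74, -0.35 to 4.50) and Sema3g (4 counts against 0) were called higher, where 11% of all genes were. Between injuries Slit3 (-1.64, -2.84 to -0.70) and Sema3c (-2.32, -4.32 to -1.01) were called lower after ischemia, beside 6.56% of all genes, and Sema3g (1.29, -0.78 to 3.57) higher, beside 5.83%.

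The cells that carried these counts differed by gene. For Sema3c, 86 of the 90 physical injury counts lay in the 15 cells with endothelial markers, and cells with neither smooth muscle nor endothelial markers had 3.01 CPM (0.821 to 7.71) in naive and 3.19 CPM (0.658 to 9.32) after physical injury. For Slit3 the latter cells had 14.3 CPM (8.61 to 22.3) in naive and 58.5 CPM (44.05 to 76.1) after physical injury, without overlap. Where pericyte markers were required as well, Slit3 had 12.8 CPM (7.48 to 20.6) and 25.1 CPM (15.7 to 37.9), with overlapping intervals. Slit2 in these pericyte-marker cells was at 5.29 CPM (2.13 to 10.9) in naive, 28.5 CPM (18.4 to 42.03) after physical and 12.97 CPM (2.68 to 37.9) after ischemic injury, and the physical injury interval alone lay above the naive one. The 30 ischemic counts of Slit2 in the whole cluster came from 7 cells, the 5 highest of which held 90%, and thinned to 1000 UMIs the log2 ratio over naive was -3.85.

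Cluster 4 of the Tbx18 line held the highest Slit2 level of the line and the most called members. Slit2 was at 48.1 CPM (26.3 to 80.6) in naive, 345 CPM (323 to 368) in physical injury and 186 CPM (163 to 211) in ischemic injury cells. Its receptor Robo1 was at 6.87 CPM (0.831 to 24.8), 101 CPM (89.8 to 114) and 74.5 CPM (60.4 to 90.9), and Sema3d at 54.9 CPM (31.4 to 89.2), 116 CPM (104 to 129.6) and 82.9 CPM (68.04 to 100.1). Both injured libraries were above the naive one for Slit2 and Robo1, and the physical injury one alone for Sema3d. Against naive, Slit2 (log2 ratio 2.82, 2.09 to 3.72), Robo1 (3.70, 2.02 to 6.94), Sema3d (1.07, 0.36 to 1.90) and Sema3e were called higher after physical injury, where 16.2% of all genes tested were. After ischemic injury Slit2 (1.93, 1.18 to 2.84), Robo1 (3.26, 1.55 to 6.51) and Sema3e were called higher, beside 15.3% of all genes. In the 143 ischemic injury cells 5 cells held 55.8% of the Slit2 and 74.2% of the Robo1 counts, and 69.6% of the Sema3e counts. After physical injury these shares were 16.03%, 19.9% and 32.1%. In naive cells 5 cells held 12 of the 14 Slit2 and 13 of the 16 Sema3d counts. Sema3e, with 0 naive counts, had 20.5 CPM (15.5 to 26.6) and 17.7 CPM (11.2 to 26.5) after injury, at least 1.99-fold and 1.72-fold higher than the level that 3 counts in the naive cells would give. Robo2, at 44.6 CPM (23.8 to 76.3), 65.5 CPM (56.3 to 75.9) and 49.2 CPM (37.9 to 62.8), had overlapping intervals, and its 13 naive counts came from 4 cells.

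Sema5a, Sema3c and Sema3g were lower in the injured cells of cluster 4. Sema5a was at 127 CPM (89.4 to 175), 12.4 CPM (8.62 to 17.4) and 7.68 CPM (3.68 to 14.1), and Sema3c at 130.4 CPM (92.3 to 179), 27.1 CPM (21.3 to 34.01) and 19.2 CPM (12.4 to 28.3). Both were called lower after both injuries (for Sema5a -3.25, -4.07 to -2.64, and -3.88, -5.22 to -3.01), where 28.5% and 39.6% of all genes tested were called lower. Sema3g, called with them, had 7 naive counts, 24.03 CPM (9.66 to 49.5), and 0 after injury, at least 21.9-fold lower after physical and 10.4-fold lower after ischemic injury by the level of 3 counts. Slit3, at 48.1 CPM (26.3 to 80.6), 71.8 CPM (62.1 to 82.5) and 26.1 CPM (18.1 to 36.5), was called lower after ischemic than after physical injury (-1.42, -2.03 to -0.93), where 10.7% of all genes were.

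The cells gathered in cluster 4 were not alike across libraries. Of 157 naive cells 150 held pericyte markers, of 349 physical injury cells 7, and no ischemic injury cell did. Cells with smooth muscle markers numbered 109, 102 and 59, and cells with fibroblast markers 2, 99 and 52. In the cells with smooth muscle markers Slit2 was low, at 9.86 CPM (1.19 to 35.6), 11.1 CPM (5.93 to 19.04) and 20.2 CPM (11.03 to 33.9). In the 43, 225 and 69 cells with neither smooth muscle nor endothelial markers it was at 152 CPM (78.4 to 265), 573 CPM (532 to 615) and 198 CPM (158 to 246). The physical injury interval alone lay above the naive one there. Robo1 in the same cells had the same pattern, at 25.3 CPM (3.06 to 91.4), 169 CPM (147 to 193) and 99.2 CPM (71.5 to 134), while Sema3d, at 152 CPM (78.4 to 265), 209 CPM (185 to 235) and 106 CPM (77.5 to 142), had injured intervals that overlapped the naive one. With cells of mixed markers left out of the whole cluster, the Sema3d ratio of physical injury over naive was -0.25. Cells with fibroblast markers had Slit2 at 394 CPM (357 to 434) after physical and 322 CPM (279 to 369) after ischemic injury. In thinned cells, 16.6% had a Slit2 UMI after physical injury, against 0 of 113 fibroblasts of cluster 5 (up to 3.21%). Of those with Slit2, 14 of 56 held Robo1, or 25% (14.4% to 38.4%), and of those without 15 of 281, or 5.34% (3.02% to 8.65%). After ischemic injury 2 of 13 and 5 of 127 did, with overlapping intervals. These shares are over all thinned cells of the cluster, and the part of its different kinds of cell in them was not tested.

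**Figure D5:**
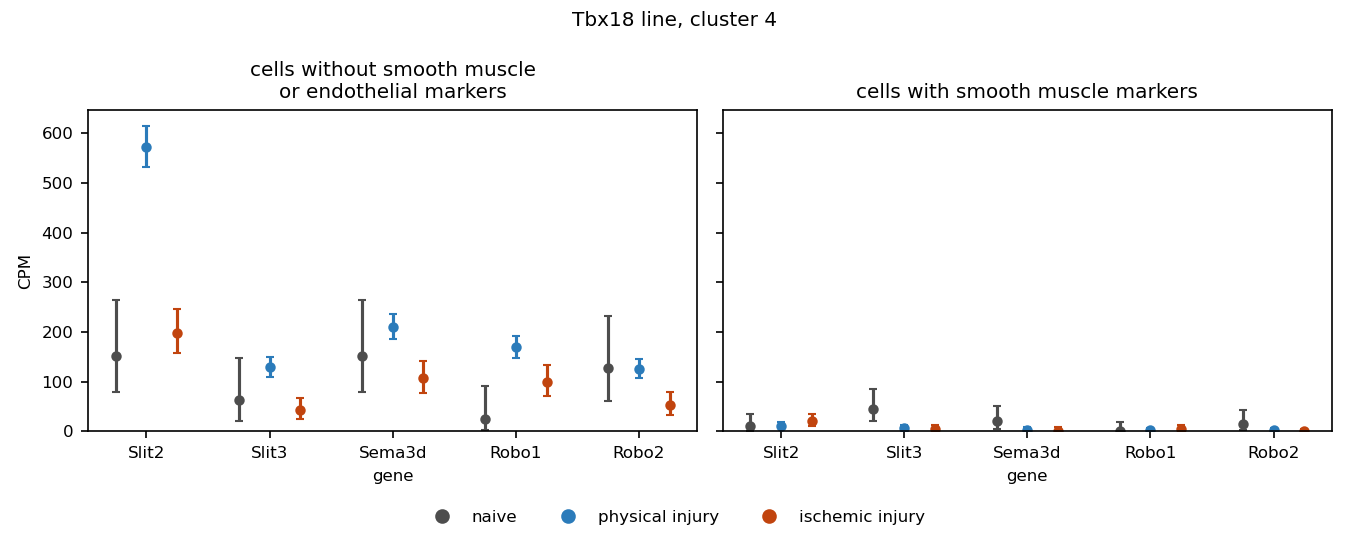
Levels of Slit2, Slit3, Sema3d, Robo1 and Robo2 (CPM, points with exact Poisson 95% intervals) in cluster 4 of the Tbx18 line by library, for cells with neither smooth muscle nor endothelial markers (left) and for cells with smooth muscle markers (right). After physical injury Slit2, Robo1 and Sema3d stand at 573, 169 and 209 CPM in the first kind of cell and at 11.1, 2.57 and 3.43 CPM in the second.

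Elsewhere in the Tbx18 line calls moved with the markers of the cells or rested on few counts. In cluster 3 Sema5a was at 328 CPM (231 to 453) in the naive cells, which hold pericyte markers, and at 1.25 and 0.242 CPM in the injured cells, which hold myeloid markers. Sema5a, Sema3c, Sema3g and Slit3 were called lower there after both injuries, where 39.2% and 37.3% of all genes tested were called lower. In smooth muscle cells Slit2 was called higher after physical injury (2 naive counts and 112, 1.46, -0.22 to 4.73), beside 4.19% of all genes. Sema3c and Sema3g had 5 and 7 ischemic counts, for each gene from 1 of the 47 cells. Both were called higher than in naive (beside 12.7%) and than after physical injury (beside 11.7%). Slit2, with 1 count, was called lower than after physical injury (beside 8.70%). Endothelial markers in these smooth muscle cells summed to 75.5, 217 and 1108 CPM, and with cells of mixed markers left out the Sema3g ratio between injuries was -0.42. The 116 fibroblasts after physical injury had Robo2 at 386 CPM (346 to 429.9) from 73 cells, Robo1 at 289 CPM (255 to 328) and Sema5a at 128 CPM (105 to 154).

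Over all clusters of the NG2 line, 3 of 48 tested combinations of member and comparison were called higher after injury than in naive (6.25%) and 8 lower (16.7%), beside 5.92% and 4.97% of all genes tested in the same comparisons. For the Tbx18 line 16 of 53 were called higher (30.2%) and 18 lower (34%), beside 12.5% and 20.4%. Without clusters 3 and 4, whose naive and injured cells carry different markers, 9 of 27 were higher (33.3%) and 4 lower (14.8%), beside 7.16% and 9.17% of all genes in those comparisons. Between ischemic and physical injury 5 of 52 were higher (9.62%) and 10 lower (19.2%), beside 5.24% and 4.67%. A combination was tested when it reached 10 CPM in either library, out of 162, 90 and 144 in all.

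Naive cells of both lines were also clustered together by the study, in clusters numbered apart from those above. Sema5a was higher in Tbx18 than in NG2 cells in clusters 0, 2, 3 and 5. In cluster 0 the levels were 286 CPM (234 to 346) in Tbx18 and 164 CPM (151 to 177) in NG2 cells, and in cluster 2 456 CPM (388 to 534) and 258 CPM (239 to 279). In cluster 3 they were 257 CPM (179 to 357) and 148 CPM (131 to 166), and in cluster 5 315 CPM (253 to 387) and 214 CPM (191 to 240.0). The log2 ratios, 0.80 (0.49 to 1.10), 0.82 (0.56 to 1.08), 0.80 (0.25 to 1.31) and 0.55 (0.20 to 0.90), were below the size for a call. In clusters 1 and 8 the ratios were -0.05 (-0.75 to 0.57) and 0.19 (-0.23 to 0.59). Slit3 in cluster 4 had 160.1 CPM (124 to 204) in Tbx18 and 104 CPM (93.9 to 116) in NG2 cells. Endothelial Sema3c was higher in Tbx18 cells as well, with 876 CPM (792 to 967) against 608 CPM (532 to 692) in cluster 10, where pericyte markers summed to 1766 CPM in Tbx18 and 6886 CPM in NG2 cells. Sema3g was concentrated in cluster 13, with 465 CPM (367 to 582) in Tbx18 and 262 CPM (203 to 332) in NG2 cells, against 37.3 and 10.6 CPM in cluster 10. Cluster 13 held 19 Tbx18 and 33 NG2 cells, too few for a comparison of the lines by the rule above. Pericyte markers in cluster 13 summed to 1619.6 and 3421 CPM. The part of pericyte markers in these Sema3c and Sema3g values was not tested.

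Between the naive lines 14 of 28 tested combinations were called higher in Tbx18 cells (50%) and 1 lower (3.57%), beside 12.7% and 13.2% of all genes. Of the 15 calls 7 came from cluster 6, beside 30.6% of all genes called higher and 22% lower. There the 246 Tbx18 cells had pericyte markers at 15781 and microglia markers at 183 CPM, and the 29 NG2 cells 2000.3 and 14617 CPM. Sema3c in that cluster had 88 counts, 209 CPM (168 to 258), in Tbx18 cells and 0 in NG2 cells. In cluster 7 Robo1 (9 and 3 counts), Robo2 (10 and 0) and Sema3c (6 and 2) were called higher, beside 16.9% of all genes. Cluster 8 gave Slit3 (7 and 9 counts) and Sema3c (3 and 1), beside 9.89%. The rest were Sema3g and Slit2 in cluster 10, beside 11.1%, and Slit3 in cluster 2, beside 6.80%.

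Partner genes came from lists of the wider guidance pathways. Nrp1, a co-receptor of class 3 semaphorins, was at 260.2, 272 and 209 CPM in naive, physical and ischemic injury endothelial cells of the NG2 line, and at 232, 245 and 234 CPM in those of the Tbx18 line. Plxna2, a plexin of class 3 semaphorins, was at 194, 284 and 185 CPM and at 394, 268 and 301 CPM in the same cells. Robo4, the endothelial Robo, was at 127, 118 and 125 CPM and at 129, 128 and 123 CPM. OPCs held the transmembrane semaphorin Sema6d at 1000.2, 1126 and 951 CPM and the netrin receptor Dcc at 1441, 1444 and 1199 CPM. Smooth muscle cells held the basement membrane netrin Ntn4 at 809, 701 and 787 CPM in the NG2 and 1102, 702 and 852 CPM in the Tbx18 line. Dscam, a cell adhesion molecule that also binds netrin, was at 2174, 2164 and 1869 CPM in OPCs. Nrp2, the other neuropilin, was highest in microglia of the NG2 line after physical injury, at 216 CPM, where Srgap2, a GTPase regulator downstream of Robo, was at 924 CPM. The guanine nucleotide exchange factors Farp1 and Arhgef12, which bind plexins, were highest in pericyte cluster 10 of the NG2 line, at 932 CPM in naive and 652 CPM in physical injury cells. The heparan sulfate proteoglycan Sdc2 was highest in NG2 pericytes of cluster 2 after physical injury, at 794 CPM. Sdc4 and Dag1, cell surface proteins that bind Slit or its matrix, were highest in smooth muscle cells of the Tbx18 line, at 394 CPM after physical injury and 392 CPM in naive cells. The remaining family members Slit1 and Robo3 were near 0, with at most 10.02 and 1.57 CPM, both from 1 count.

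In oligodendrocytes after ischemic injury, 2 of 7 other semaphorins tested were called higher than in naive and 0 lower, beside 5.32% of all genes called higher, with a median log2 ratio of 0.71 beside 0.06 over all genes. Sema4f, a transmembrane semaphorin, was at 1.53 CPM from 2 counts in naive, 7.52 CPM in physical injury and 48.7 CPM in ischemic injury oligodendrocytes, called over both, the second beside 2.45% of all genes. Sema4c, another transmembrane semaphorin, was at 6.88 CPM in naive and 20.04 CPM in ischemic injury cells (1.42, 0.60 to 2.68). Of 3 plexins and neuropilins tested, Nrp2 was called lower, at 13.8 CPM in naive and 4.27 CPM after ischemic injury, beside 2.21% of all genes. Sema4d, the semaphorin known from mature oligodendrocytes, was at 218, 265 and 356 CPM and was not called, and Sema6a was highest in these cells, at 374, 373 and 344 CPM.

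In OPCs after ischemic injury, 0 of 8 other semaphorins tested were called against naive, beside 6.28% of all genes called higher and 4.74% lower. Of 9 plexins and neuropilins, Plxna4 was called higher, at 19.3 CPM in naive and 43.8 CPM after ischemic injury, and Plxnb3 lower, at 111 and 50.4 CPM. Of 16 intracellular partners 3 were called lower, Dpysl5, Mical1 and Rras, the last at 31.6 and 11.6 CPM. In radial glial precursors 2 of 6 other semaphorins tested were called lower after ischemic than after physical injury, beside 5.19% of all genes. These were Sema6d at 494 and 217 CPM (-1.18, -1.33 to -1.05) and Sema6b at 13.4 and 4.88 CPM. The median of the 6 was -0.63, beside -0.04 over all genes.

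In endothelial cells of the NG2 line Sema6a, a transmembrane semaphorin, was called higher after physical injury, at 124 CPM in naive and 249 CPM in injured cells (1.00, 0.67 to 1.36). Ntn4 was called lower after both injuries, at 54.9, 18.97 and 22.6 CPM, beside 2.70% of all genes after physical injury. For the Tbx18 line Ntn4 was at 82.2, 15.1 and 18.2 CPM and Sdc2 at 45.8 CPM in naive and 1.56 CPM in ischemic injury cells, both in endothelial cells. Both genes had higher levels in mural cells, with Ntn4 at 1102 CPM in naive smooth muscle cells and Sdc2 at 723 CPM in naive pericytes of cluster 2, and the part of the pericyte markers given above for these endothelial cells was not tested. Rnd1, a plexin-binding GTPase, was called higher, at 17.5, 41.9 and 69.3 CPM (1.21, 0.47 to 2.18, and 1.92, 1.20 to 2.90), beside 2.86% and 3.36% of all genes.

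The genes whose levels were most like each member were taken by Pearson's r of log2(CPM + 1) over 47 groups of cluster and library, among 9387 genes that reached 50 CPM in any group. The groups share libraries and clusters, so r is a description. Sema3c was most like Erg (0.95), Podxl (0.95) and Cldn5 (0.94), genes of endothelial cells. Sema3g was most like Gkn3 (0.97), an arterial gene, Ccm2l (0.97) and Gata2 (0.96). Sema3d was most like Mmp16, Nalcn and Smoc1 (0.94, 0.94 and 0.93), Robo1 like Nalcn, Sh3rf3 and Mmp16 (0.90, 0.89 and 0.89), and Sema3e like Bcat1, Ak5 and Itgb8 (0.89, 0.89 and 0.88). Mmp16 and Nalcn thus stand in the lists of both Sema3d and Robo1. Sema5a was most like Dmd, Mtcl1 and Gucy1a2 (0.93, 0.92 and 0.92) and Slit3 like Gm11627, Slc16a11 and Gpr20 (0.89, 0.87 and 0.86). Robo2 was most like Snhg11, Efemp1 and Bmp7 (0.95, 0.91 and 0.87). Slit2 had the loosest match, with Ecrg4, Foxp2 and Penk at 0.69, 0.68 and 0.67.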

How the data were processed

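Cortical tdT+ cells sorted from both lines were sequenced as 10x 3′ single cell libraries, 1 pooled library per group and 6 in all. The authors aligned reads to mm10 (GRCm38) with Cell Ranger, version 7.0.0 in the submitters' processing notes, filtered cells on genes, UMIs and mitochondrial transcripts, and clustered them in Seurat. The deposited tables hold raw UMI counts per gene and cell for the NG2 line, the Tbx18 line and the naive cells of both. The percent of mitochondrial transcripts per cell was deposited by the authors with the clusters, and was used here for filters alone. No doublet caller is named in the sources used here and none was run. Cells with markers of several classes were left out as an alternative.

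Counts were summed per cluster and library and scaled to CPM, with exact Poisson 95% intervals. Shares have exact Clopper-Pearson intervals. A pseudocount of 1 CPM enters the log2 ratios, whose intervals are exact conditional binomial ones without it. A pair of groups was compared where both had at least 20 cells and 50000 UMIs, and a gene was tested at 10 CPM or more and called at a fold of 2. Fractions of cells were compared after thinning to 1000 UMIs. Cells carried a marker class with at least 3 UMIs of each of at least 2 of its genes. They counted for an endothelial list with at least 2 UMIs of it and none of the other list. All 9 members are named, up to 4 called genes of each pathway list in a comparison, the 3 highest of each list, and the 3 genes most like each member. The members and lists were chosen with earlier results of these data known. Promoter windows are from RefSeq. Intervals came from scipy 1.17.1 under Python 3.11.15, tables from pandas 2.3.3 with numpy 2.4.6, figures from matplotlib 3.10.9, and TMM factors, an alternative scaling, from edgeR 4.0.16 in R 4.3.3. The scripts were tested on simulated data.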

Additional observations from a re-analysis of the deposited data

Results flagged for a closer look

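Sema5a moved in opposite directions after physical injury in pericyte clusters 0, 1 and 2 of the NG2 line and in cluster 2 of the Tbx18 line. Clusters 8 and 10 of the NG2 line were not part of this contrast. In cluster 8 Sema5a was lower after physical injury, as in the Tbx18 cluster, and in cluster 10 the intervals overlapped. Without a pseudocount, the log2 ratio of physical injury over naive was 0.35 in cluster 0, 0.25 in cluster 1 and 0.32 in cluster 2 of the NG2 line, and -0.59 in cluster 2 of the Tbx18 line. Each group is 1 library, and the difference between the lines was not tested. Smooth muscle markers in the Tbx18 cluster summed to 718 CPM in naive and 4189 CPM in physical injury cells, and their part in the difference was not tested. In its cells with pericyte but neither smooth muscle nor endothelial markers, Sema5a was also lower after physical injury, without overlap of the intervals.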

How the results depend on the processing

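With 1 pooled library per group, animals and libraries cannot be told apart from conditions, and no count of cells stands in for replicates. Depth limits the small clusters most: in pericyte cluster 10 of the NG2 line 1 count can pass 10 CPM. No paired analysis was possible because each group is 1 library with no test. Members called higher after injury in the NG2 line, 3 in all, were 6 under the methods' filters, 7 at no more than 5% mitochondrial transcripts, 5 with mixed-marker cells left out, 12 after thinning, 12 with no minimum level and 1 at 20 CPM. The 8 called lower were 14 under the filters and 20 with no minimum. In the Tbx18 line the 16 called higher were 9 without mixed-marker cells, 26 with no minimum and 9 without clusters 3 and 4, and the 18 called lower were 4 without those clusters. Between injuries the 5 called higher were 2 by the mean over cells, 3 with a pseudocount of 5 CPM, 13 with no minimum, 3 at 20 CPM and 2 when intervals had to exclude 0. The 10 called lower were 19 after thinning, 22 with no minimum and 6 at 20 CPM. Between naive lines the 14 called higher were 25 with no minimum and 9 at 20 CPM, and the 1 called lower was 2 under the filters, 0 at 5% mitochondrial transcripts, 3 after thinning, 19 with no minimum and 0 when intervals had to exclude 0. The alternatives without clusters 3 and 4 and by intervals were chosen after seeing the data. Shares over all genes were taken for the main setting and, for injury against naive in the Tbx18 line, without those clusters. Under the other alternatives they were not taken, so the changes in these counts cannot be read as particular to the members.

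Of 590 alternatives over 59 single log2 ratios, 532 stayed within the 95% interval of the reported value, 51 moved further and 7 changed sign. The 59 are the called ratios whose interval excludes no difference, so the calls with the least certain direction are not among them. Alternatives that change only the minimum level leave a log2 ratio as it is and count among the 532. Slit2 in NG2 cluster 8 was 0.38 for physical injury over naive after thinning, and 1.02 for ischemic over physical injury without mixed-marker cells. Those cells left out, Sema3g in Tbx18 cluster 1 was -0.42 between injuries, Sema3c in cluster 2 -0.021 and Sema3d in cluster 4 -0.25 for physical injury over naive. Thinned, Slit2 in Tbx18 cluster 2 was -3.85 for ischemic injury over naive, and Slit3 in cluster 8 of the naive cells -3.33 between lines. The cause was not tested. Sema5a in oligodendrocytes, ischemic injury over naive, ranged from 2.45 to 5.69. Arterial over venous Sema3g at 1 UMI of a list was 3.99 after physical and 3.67 after ischemic injury in the Tbx18 line, against 4.86 and 4.26. By Spearman's rho 12 of the 27 genes most like a member were kept. TMM scaling moved all log2 ratios by 0.97 and 0.88 in Tbx18 cluster 3, 0.42 and 0.65 in cluster 4 and 0.22 at most in NG2 clusters, and none of the counts above by over 1.5 times.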
